A study of Pomacea canaliculata with 34 samples.

Results

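In whole embryos of the apple snail Pomacea canaliculata, 37 of the 21131 genes counted were abundant at the first stage sampled and had lost most of that level by Stage-5. They were chosen on the mean level of each stage in CPM, the reads of a gene scaled by the total of its library. A gene was taken if its Stage-2 mean was 10 CPM or more and over 50% of its highest stage mean, and at least 8 times its hatchling mean. Its mean also had to reach 25% of Stage-2 or less for the first time at Stage-3, Stage-4 or Stage-5. That early fall came at Stage-3 in 5 genes, at Stage-4 in 17 and at Stage-5 in 15. A further 85 genes met the other conditions but reached 25% only after Stage-5. Because these levels made the choice, the early fall and the low hatchling level are given as a description, without a test.

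Polyadenylated RNA was sequenced from whole animals, with embryos taken out of their eggs, in a study whose title concerns the regeneration of the camera-type eye. There were 3 libraries for each of the 6 stages up to Stage-7, the first being Stage-2, and 4 for each later stage and for the group labelled Hatchling, and these numbers are the n of every mean ± SD below. The labels give a stage and a number for each library and no treatment, strain, age, clutch or animal, so the spread used in the tests may be technical. Reads in genes lay between 16608796 and 23030901 per library up to Stage-7 and between 13392123 and 95942469 from Stage-8 on.

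As background, an animal egg is stocked with messenger RNA made by the mother. The embryo later begins its own transcription, and many stored messages are degraded around that time, a change called the maternal-to-zygotic transition. Counts of RNA do not tell whether a message came from the mother or from the embryo, and the labels do not call these transcripts maternal. In whole animals, fewer cells of a type and less RNA per cell cannot be told apart. No product name was at hand for any of the 37 genes, so they are given by LOC identifier, without roles, in the order of their early fall.

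Together the 37 genes held a far smaller share of the RNA at Stage-5 than at Stage-2, which follows from the choice. Their summed level was 5223 ± 419 CPM at Stage-2, 1960.1 ± 47.7 CPM at Stage-3, 697 ± 127 CPM at Stage-4 and 455 ± 33 CPM at Stage-5. As a share of all reads in genes this was 0.522%, 0.196%, 0.0697% and 0.0455%. Afterwards the sum was 405 ± 48.2 CPM at Stage-6, 312 ± 90.3 CPM at Stage-7, 405 ± 64.2 CPM at Stage-8, 323 ± 107 CPM at Stage-9, 189.8 ± 88.6 CPM at Stage-10 and 178 ± 48.6 CPM in hatchlings.

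The uneven course after Stage-5 followed a single gene. LOC112567685 held 30.7% ± 2.54 of the summed level at Stage-2, 12.2% ± 7.31 at Stage-4, 72.2% ± 4.12 at Stage-8 and 52.6% ± 9.85 in hatchlings. The mean sum of the other 36 was lower at each stage than at the one before. It was 3629 ± 409 CPM at Stage-2, 375 ± 41.4 CPM at Stage-5, 173 ± 13.1 CPM at Stage-7, 111 ± 3.77 CPM at Stage-8, 86.9 ± 6.11 CPM at Stage-10 and 80.8 ± 5.36 CPM in hatchlings.

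**Figure D1:**
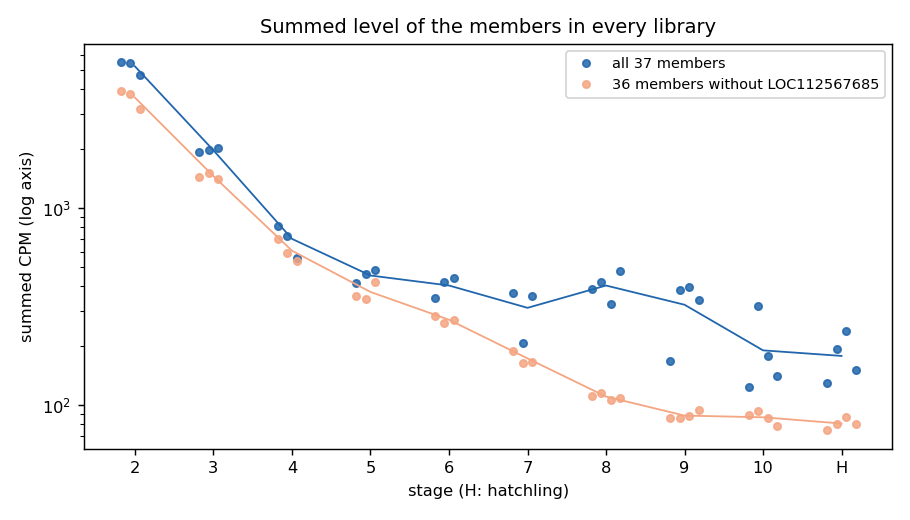
Summed CPM of the 37 genes, and of the 36 without LOC112567685 (vertical log axis), in each of the 34 libraries by stage, with lines through the stage means. The mean sum of the 36 is lower at each stage than at the one before, while the mean sum of the 37 is near 405 CPM at both Stage-6 and Stage-8.

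Low relative to Stage-2 did not always mean low in level. The median over the 37 genes was 45.4 CPM at Stage-2, 33.5 CPM at Stage-3, 11.7 CPM at Stage-4, 3.35 CPM at Stage-5 and 1.25 CPM in hatchlings. A mean of 10 CPM or more was found in 22 genes at Stage-3, 19 at Stage-4, 11 at Stage-5, 7 at Stage-6 and 2 in hatchlings. A mean under 1 CPM was found in 4 genes at Stage-4, 7 at Stage-5, 16 at Stage-7 and 15 in hatchlings. In all 37 every Stage-5 library was below every Stage-2 library, where this held for 16.2% of the 17441 genes tested below, but the rule used both stages and nothing is read from that count. At Stage-5 the means of 36 genes were at 25% of Stage-2 or less, the exception being LOC112566975 with 26.4% after 22% at Stage-4.

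**Figure D2:**
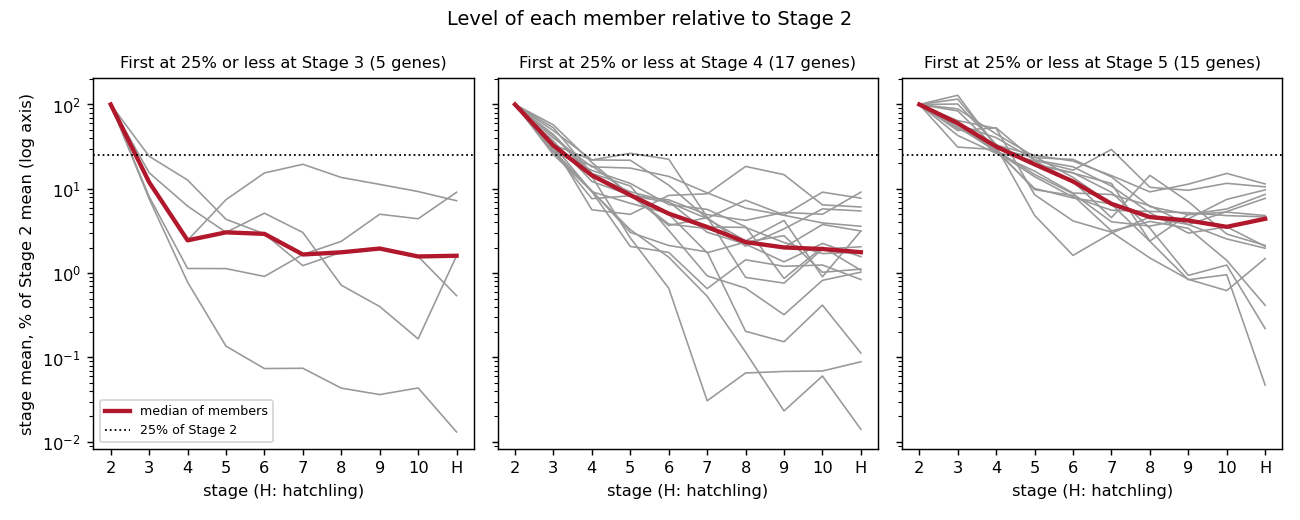
Stage mean of each gene as a percentage of its Stage-2 mean (vertical log axis) by stage, in 3 panels for the genes first at 25% or less at Stage-3 (5 genes), Stage-4 (17) and Stage-5 (15). Grey lines are single genes, the red line is their median and the dotted line marks 25%.

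The 5 genes that fell by Stage-3 were led by LOC112553858, exceeded at Stage-2 only by LOC112567685 and LOC112560933 among the 37. Its libraries held 584, 422 and 347 CPM at Stage-2, then 44.6, 34.8 and 23.6 CPM at Stage-3 and 5.12, 2.84 and 2.63 CPM at Stage-4. The Stage-3 mean was 7.62% of Stage-2, the lowest share of any of the 37 at that stage, and the Stage-5 mean was 0.136%. No library from Stage-5 on exceeded 0.711 CPM. Hatchlings had 8 reads in all, 7 of them in replicate 4, and this gene had the lowest hatchling level relative to Stage-2.

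The other 4 genes of this class were far less abundant. LOC112565385 had libraries of 40.8, 35.9 and 23.1 CPM at Stage-2 and 3.83, 4.42 and 3.69 CPM at Stage-3, or 12% of Stage-2. LOC112567077 had 29.3, 24.5 and 11.6 CPM at Stage-2 and 1.99, 1.81 and 1.49 CPM at Stage-3, or 8.08%. In both, replicate 3 was the lowest Stage-2 library and still lay above every Stage-3 library. LOC112567205 and LOC112564258, outside the naming rule, averaged 15.8 ± 9.93 and 10.9 ± 2.41 CPM at Stage-2.

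The 17 genes that fell by Stage-4 included the most abundant of all. LOC112567685 had libraries of 1544, 1664 and 1577 CPM at Stage-2, 474, 457 and 599 CPM at Stage-3 and 115, 132 and 22.7 CPM at Stage-4. Its Stage-4 mean was 5.64% of Stage-2, the lowest share in the class, and the Stage-4 libraries differed 5.82-fold among themselves. LOC112560933 came second with 415, 876 and 692 CPM at Stage-2, 203, 293 and 299 CPM at Stage-3 and 148, 128 and 86 CPM at Stage-4. Its Stage-2 libraries were spread widely, yet the lowest of them was above the highest of Stage-3.

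LOC112556192 was next in level in this class. Its libraries held 352, 288 and 227 CPM at Stage-2, 65, 82.8 and 72.4 CPM at Stage-3, 34.8, 24.7 and 21.9 CPM at Stage-4 and 7.54, 8.19 and 12.7 CPM at Stage-5, and hatchlings had 12 reads in all. LOC112559576 showed a similar relative fall from a low level, with 12.1, 13.5 and 10.6 CPM at Stage-2 and 1.29, 0.898 and 0.571 CPM at Stage-4, or 7.64% of Stage-2. In both genes every Stage-4 library was far below every Stage-2 library.

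The 15 genes that fell by Stage-5 were led by LOC112562736. Its libraries held 206, 188 and 182 CPM at Stage-2, 166, 172 and 145 CPM at Stage-3, 75.3, 54.3 and 43.7 CPM at Stage-4 and 46.3, 46.8 and 41.5 CPM at Stage-5. The libraries of Stage-4 and Stage-5 overlapped. LOC112568227 averaged 93.7 ± 28.7 CPM at Stage-2, 26.1 ± 8.97 CPM at Stage-4 and 9.47 ± 2.09 CPM at Stage-5. LOC112572887 averaged 87.4 ± 23.4 CPM at Stage-2, 77.5 ± 10.1 CPM at Stage-3 and 21.1 ± 4.56 CPM at Stage-5. Without replicate 2 of Stage-2, or without replicate 1 or 2 of Stage-5, LOC112572887 no longer met the rule.

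LOC112576570, LOC112559533 and LOC112572080 had their highest mean at Stage-3, and the other 34 genes at Stage-2. LOC112576570 had 36.5, 39.3 and 35 CPM at Stage-2, 52.6, 49.98 and 39.9 CPM at Stage-3, 13.3, 12.8 and 8.91 CPM at Stage-4 and 1.5, 1.08 and 2.78 CPM at Stage-5. Its Stage-3 libraries all lay above those of Stage-2, and its Stage-5 mean was 4.84% of Stage-2, the lowest share in the class. In the other 2 genes the libraries of Stage-2 and Stage-3 overlapped. The means of 30 genes fell at each step between Stage-2 and Stage-5.

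The classes had different levels relative to Stage-2 up to Stage-5, which is how they were cut. The median of the 5 genes was 12% at Stage-3, 2.45% at Stage-4, 3.04% at Stage-5 and 1.61% in hatchlings. For the 17 genes it was 32.6%, 14.4%, 8.41% and 1.77% at the same points. For the 15 genes it was 59.9%, 31.6%, 19.5% and 4.41%. The medians of the 5 and the 17 genes were thus close in hatchlings, as they were at Stage-9 with 1.96% and 2.02%.

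The Stage-2 level itself was less even in these genes than in most. The coefficient of variation between the 3 libraries ran from 1.17% to 99.3% with a median of 22.7%, where the median over all 8276 genes at 10 CPM or more was 8.37%. The rule used these Stage-2 values, and the 2 sets were not matched by level, with 13 of the 37 under 20 CPM. Nothing further is read from that difference. In 10 genes the highest Stage-2 library was over 2 times the lowest. LOC112568942 had 1.92, 13.1 and 16.6 CPM at Stage-2, 1.06, 2.03 and 17.2 CPM at Stage-3 and 11, 5.44 and 0.0571 CPM at Stage-4, so its libraries overlapped between these stages. It no longer met the rule without replicate 2 or without replicate 3 of Stage-2. LOC112559960, chosen after its values were seen, had 504, 79.1 and 123 CPM at Stage-2. Replicate 3 was the lowest Stage-2 library in 19 genes, replicate 1 in 13 and replicate 2 in 5, and the part of this in the results was not tested.

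**Figure D3:**
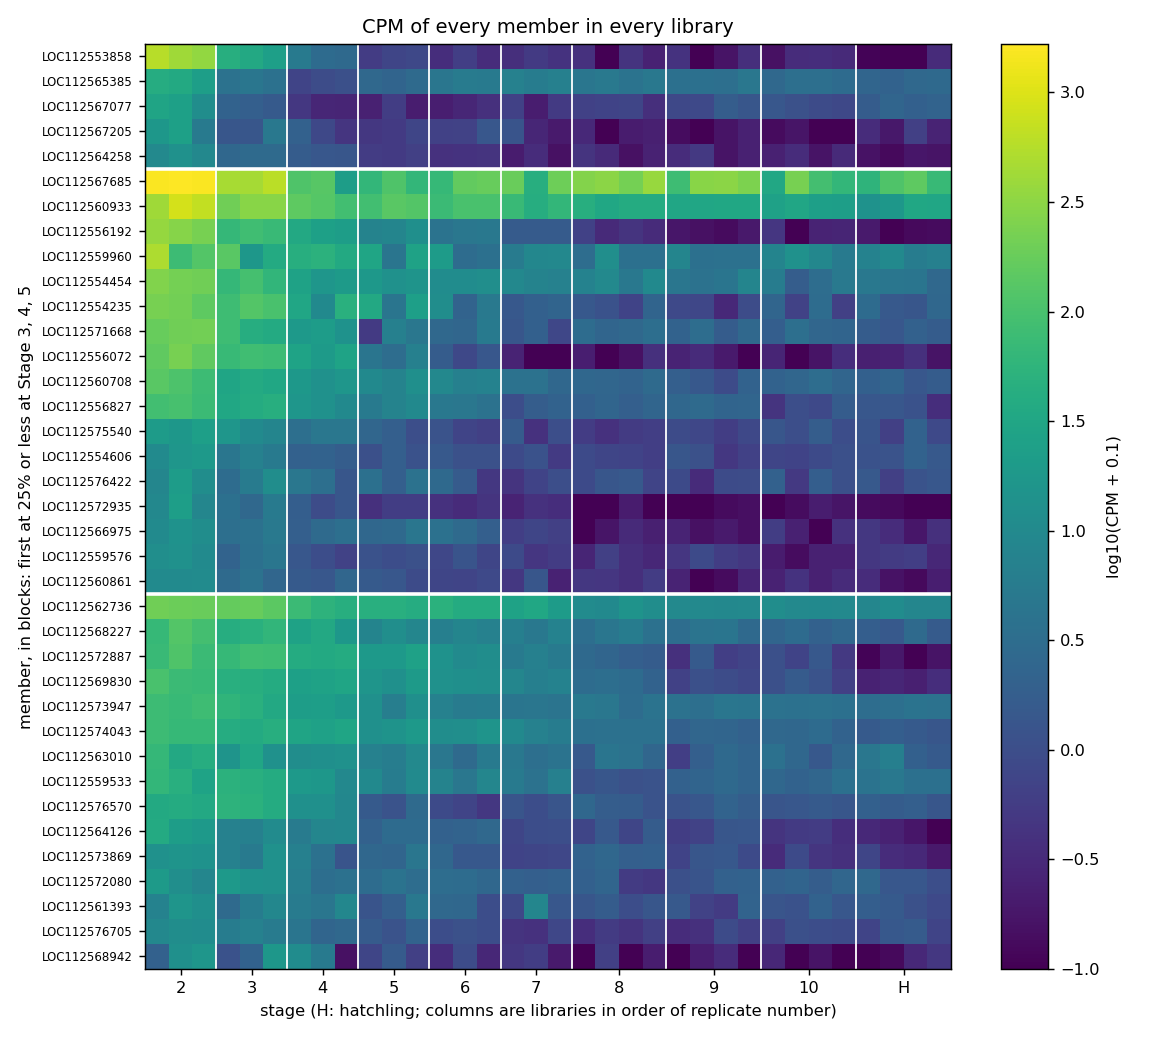
Colour shows log10(CPM + 0.1) of each of the 37 genes (rows, in blocks by the stage of the early fall and sorted by Stage-2 level) in each of the 34 libraries (columns, by stage). LOC112567685 and LOC112560933 have the highest stage means of the 37 from Stage-3 to hatchlings as well as at Stage-2.

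The genes nearest to each limit of the rule show how close the choice was. At the floor of 10 CPM, LOC112560861 was taken with a Stage-2 mean of 10.5 CPM and LOC112553450 was left out with 8.65 CPM. At the limit of 25%, LOC112572080 was taken with 24.9992% at Stage-5, and LOC112561807 was left out with 28.5%. LOC112572080 was also nearest to the hatchling limit, at 11.4% of Stage-2, while LOC112553587 was left out at 14.4%. No gene failed only the condition on the highest stage mean, and the lowest share kept was 77.8%, in LOC112576570. With any 1 library of the first 4 stages or of hatchlings left out, 32 to 39 genes met the rule, and 29 of the 37 met it each time.

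Levels from Stage-6 to Stage-10 entered the choice only through a cap at under 2 times the Stage-2 mean, so these stages were compared with edgeR's quasi-likelihood test. The direction is still not free of the choice, since the hatchling limit keeps out genes that climb late. The same limit requires genes still above it at Stage-6 to be lower in hatchlings. All 37 passed the filter on low counts, which their Stage-2 level ensured, but fewer passed on the libraries of the compared stages alone. These were 32 at Stage-7 against Stage-6, 26 at Stage-8 against Stage-7, 27 at Stage-9 against Stage-8, 28 at Stage-10 against Stage-9 and 33 at Stage-10 against Stage-6. The rest were in the test through their early level, so the number of falls in each comparison is given also among the genes that passed on the compared stages. Counts by size of fall, by class and over several steps are given for all 37 only. An adjusted p under 0.05 over 17441 genes is a call.

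Most of the 37 genes fell further after Stage-6, which the hatchling limit required of some of them by the last stage. At Stage-10 against Stage-6, 25 were called, where 71.3% of all genes tested were. Of these, 23 fell (62.2% of the 37), where 32.5% of all genes did, or 27.8% with RLE scaling, and 2 rose, where 38.7% of all genes did. The median log2 fold change was -1.77 for the 37 and 0.11 over all genes, and with RLE scaling -1.64 and 0.24, with 22 of the 37 lower. Among genes that passed on these stages alone, 21 of 33 fell, where 33.9% of all such genes did. The fall was 4-fold or more in 14 of the 37, where it was in 1.4% of all genes. That count was not repeated among genes that passed on these stages alone. It takes in genes with few reads here, such as LOC112572935 with 19 at Stage-6 and 12 at Stage-10. A fall of any size was called in 3 of the 5 genes of the earliest class, 11 of the 17 and 9 of the 15. Of the 5, LOC112567205 rested on 53 reads at Stage-6 and 5 at Stage-10, and LOC112564258 on 21 and 41. The call of LOC112564258 was lost without any 1 Stage-6 library or without replicate 1 or 3 of Stage-10. Of the 17, LOC112554235 had overlapping libraries and lost its call without replicate 1 of Stage-6 (edgeR adjusted p = 0.119). Genes above the hatchling limit at Stage-6 include LOC112566975, LOC112562736, LOC112574043 and LOC112569830, at 22.4%, 22.3%, 18.2% and 15.5% of Stage-2. They also include LOC112565385, LOC112559533, LOC112560933 and LOC112572887, at 15.4%, 15.4%, 14% and 13.7%. All of these were called lower at Stage-10. LOC112572080 and LOC112561393, also above it with 21.3% and 16.6%, were not called. How much of the difference from all genes this limit accounts for was not tested.

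**Figure D4:**
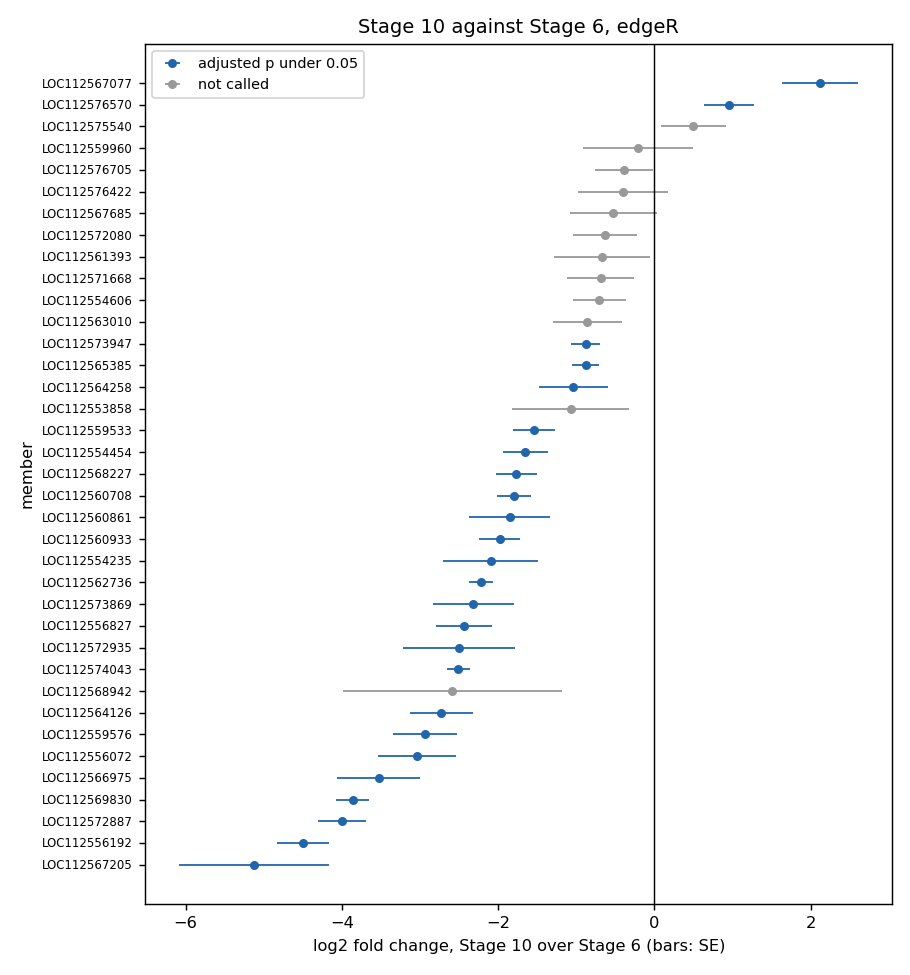
Log2 fold change of Stage-10 over Stage-6 (horizontal axis; edgeR, TMM scaling; bars show the SE) for each of the 37 genes. Coloured points are the 25 genes with an adjusted p under 0.05, of which 23 lie left of 0, and grey points are the 12 not called.

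LOC112569830 had the lowest adjusted p of this comparison among the 37. Its libraries held 0.981, 1.5, 1.1 and 0.529 CPM at Stage-10, against 13.7, 12.4 and 12.2 CPM at Stage-6. The stages did not overlap, and the log2 fold change was -3.86 with an SE of 0.215 (edgeR adjusted p = 3.42e-15). LOC112572887 had 0.959, 0.607, 1.38 and 0.406 CPM at Stage-10, against 14.1, 10.2 and 11.4 CPM at Stage-6, again without overlap (log2 fold change -3.99, edgeR adjusted p = 3.01e-12). Its 4 hatchling libraries had 6 reads in all.

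LOC112556192 and LOC112562736 fell from very different levels. LOC112556192 had 0.361, 0, 0.164 and 0.172 CPM at Stage-10, against 3.95, 4.6 and 4.86 CPM at Stage-6 (log2 fold change -4.50, edgeR adjusted p = 1.14e-12). Without replicate 1 of Stage-10 that log2 fold change was -5.17. LOC112562736 had 11.5, 9.47, 10.1 and 9.6 CPM at Stage-10, against 49, 39.9 and 39.7 CPM at Stage-6 (log2 fold change -2.22, edgeR adjusted p = 3.8e-13). Neither gene overlapped between the stages, and LOC112562736 averaged 9.25 ± 1.37 CPM in hatchlings.

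LOC112560933, second of the 37 in abundance, averaged 26 ± 3.79 CPM at Stage-10 and 92.8 ± 15.1 CPM at Stage-6 (log2 fold change -1.98, edgeR adjusted p = 9.92e-08). LOC112560708 averaged 2.47 ± 0.473 CPM at Stage-10 and 7.73 ± 1.19 CPM at Stage-6 (log2 fold change -1.80). LOC112566975 averaged 0.234 ± 0.209 CPM at Stage-10 and 2.71 ± 0.943 CPM at Stage-6, with a log2 fold change of -3.53, or -4.17 without replicate 1 of Stage-10. The libraries of these 3 genes did not overlap either. The log2 fold change was -1.77 for LOC112568227, -2.94 for LOC112559576 and -1.85 for LOC112560861, all called. LOC112559576 and LOC112560861 rested on 29 and 48 reads at Stage-10.

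LOC112567077 and LOC112576570 were the 2 genes that rose. LOC112567077 had 1.32, 1, 0.818 and 0.713 CPM at Stage-10, against 0.13, 0.182 and 0.286 CPM at Stage-6 (log2 fold change 2.12, edgeR adjusted p = 0.000388). Its hatchling mean was 1.98 ± 0.301 CPM, far under its Stage-2 mean of 21.8 CPM. LOC112576570 had 1.21, 1.29, 1.47 and 1.27 CPM at Stage-10, against 0.782, 0.638 and 0.381 CPM at Stage-6 (log2 fold change 0.96, edgeR adjusted p = 0.00881). Without replicate 3 of Stage-6 this call was lost (log2 fold change 0.72, edgeR adjusted p = 0.0738), and in the other alternatives the adjusted p ran up to 0.0458.

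The single steps were also compared. At Stage-7 against Stage-6, 13 of the 37 were called, where 30.4% of all genes were. All 13 fell (35.1%), where 14.1% of all genes did with TMM and 11.7% with RLE, and 0 rose, where 16.4% of all genes did. Among genes that passed on these stages alone, 13 of 32 fell, where 16.6% of all such genes did. At Stage-8 against Stage-7, 13 were called, where 46.1% of all genes were. Of these 12 fell (32.4%), where 23.2% of all genes did with TMM and 17.2% with RLE, and LOC112573869 rose, where 22.9% of all genes did. Among genes that passed on these stages alone, 9 of 26 fell, where 25.5% of all such genes did. LOC112573869, named after its values were seen, lost its call with limma-voom and without any 1 of the 3 Stage-7 libraries, while DESeq2 and a fit of only these libraries called 2 of the 37 higher.

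Calls were fewer at the later steps, among the 37 as among all genes. At Stage-9 against Stage-8, 8 of the 37 were called, where 22.6% of all genes were. That count was 4 without replicate 3 of Stage-9 or with limma-voom. It was 5 without replicate 1 or 4 of Stage-8, without replicate 2 of Stage-9 and when only the libraries of both stages were fitted. Of the 8, 6 fell (16.2%), where 10.2% of all genes did with TMM and 7.91% with RLE, and 2 rose, LOC112567077 and LOC112559533, where 12.4% did. The rise of LOC112567077 (log2 fold change 1.19, edgeR adjusted p = 0.0309) was lost without replicate 1 or 4 of Stage-8 or replicate 3 or 4 of Stage-9, with an adjusted p of up to 0.13 there. It was also lost with limma-voom (adjusted p = 0.142) and when only the libraries of both stages were fitted (edgeR adjusted p = 0.0623). Among genes that passed on these stages alone, 4 of 27 fell, where 10.8% of all such genes did.

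At Stage-10 against Stage-9, 3 were called, where 5.15% of all genes were. All 3 fell (8.11%), where 2.51% of all genes did with TMM and 3.74% with RLE, and 0 rose, where 2.64% did. Among genes that passed on these stages alone, 3 of 28 fell, where 2.47% of all such genes did. The count was 1 when only the libraries of both stages were fitted and 5 without replicate 2 of Stage-10. The 3 genes were LOC112556827, LOC112559576 and LOC112564126, and 10 of the 37 had an unadjusted p under 0.05, where 20.4% of all genes did. LOC112564126 lost its call without replicate 3 or 4 of Stage-9 or replicate 1 or 4 of Stage-10 (edgeR adjusted p up to 0.143). Scaling moved the balance over all genes: of all calls, 53.8% were higher at Stage-7 against Stage-6 with TMM and 66.1% with library totals. At Stage-8 against Stage-7 this share was 49.7% with TMM and 62.8% with RLE, at Stage-9 against Stage-8 it was 55.0% with TMM, 62.6% with RLE and 45.7% with library totals, and at Stage-10 against Stage-9 it was 51.3% with TMM, 38.4% with RLE and 72.8% with library totals.

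LOC112556192, LOC112569830, LOC112572887 and LOC112574043 each fell at 3 of the 4 steps, where 4.45% of all genes fell at 3 or more. Another 5 genes fell at 2 steps, where 7.75% of all genes did, and 12 at 1, where 20.9% did. In LOC112569830 the log2 fold change was -0.84 at Stage-7 against Stage-6, -1.50 at Stage-8 against Stage-7 and -1.81 at Stage-9 against Stage-8. In LOC112572887 it was -1.13, -1.55 and -1.56 at these steps. LOC112560708 averaged 3.36 ± 0.785 CPM at Stage-7 and 7.73 ± 1.19 CPM at Stage-6 (log2 fold change -1.28, edgeR adjusted p = 0.000238). The call of LOC112556192 at Stage-9 against Stage-8 rested on 8 reads at Stage-9 and was lost when any of 6 single libraries was left out. limma-voom did not make that call (adjusted p = 0.171) or the call of this gene at Stage-7 against Stage-6 (adjusted p = 0.0574). LOC112560708, counted at 2 steps, lost its call at Stage-9 against Stage-8 in 10 of 15 alternatives. LOC112564126, also counted at 2, lost its call at Stage-7 against Stage-6 without replicate 1 of Stage-7. Among genes counted at 1 step, LOC112560933, LOC112560861, LOC112561393, LOC112571668, LOC112573947, LOC112575540 and LOC112576705 lost that call with at least 1 library left out. How often calls over all genes were lost in this way was not examined. LOC112572935 rested on 2 reads at Stage-8 and 13 at Stage-7. No step was called in 14 genes (37.8%), where 35.7% of all genes had none.

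LOC112559533 turned within this span. Its libraries held 1.01, 1.27, 0.997 and 1.08 CPM at Stage-8, against 5.24, 3.76 and 6.74 CPM at Stage-7 (log2 fold change -2.33, edgeR adjusted p = 9.66e-07). They held 1.91, 2.23, 2.66 and 2.19 CPM at Stage-9, all above those of Stage-8 (log2 fold change 1.09, edgeR adjusted p = 0.0121). limma-voom did not call that rise (adjusted p = 0.207), and in the other alternatives the adjusted p was at most 0.0424. LOC112561393 was called lower at Stage-8 against Stage-7, but its libraries there held 1.26, 1.57, 0.886 and 1.23 CPM at Stage-8, against 0.717, 8.43 and 1.31 CPM at Stage-7. Without the single high Stage-7 library, replicate 2, the log2 fold change was 0.23.

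LOC112565385 had higher means again after Stage-4. Its libraries held 0.621, 0.851 and 0.971 CPM at Stage-4, 2.53, 2.17 and 2.73 CPM at Stage-5, 4.39, 5.56 and 5.43 CPM at Stage-6 and 6.95, 5.86 and 6.68 CPM at Stage-7. Each of these stages lay wholly above the one before, but the one step of these that was tested, Stage-7 against Stage-6, was not called (log2 fold change 0.27, edgeR adjusted p = 0.281). The Stage-7 mean was 19.5% of Stage-2. At Stage-8 the mean was 4.53 ± 0.446 CPM, against 6.5 ± 0.569 CPM at Stage-7 (log2 fold change -0.57, edgeR adjusted p = 0.00752), a call that limma-voom did not make (adjusted p = 0.0749).

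LOC112567685 had a second, lower peak. Its mean was 89.9 ± 58.9 CPM at Stage-4, 79.4 ± 31.5 CPM at Stage-5, 139 ± 82.5 CPM at Stage-7, 294 ± 63.2 CPM at Stage-8 and 97.1 ± 43.6 CPM in hatchlings. Its Stage-8 mean was 3.27 times that of Stage-4, the stage of its early fall. No other of the 37 had a later mean up to Stage-10 of 2 times or more its mean at that stage. Lower points came after the early fall in some genes and are not covered by this measure. From its lowest stage, LOC112565385 went from 0.815 CPM at Stage-4 to 6.5 CPM at Stage-7. LOC112567077 went from 0.199 CPM at Stage-6 to 1.98 CPM in hatchlings. In LOC112567685 the 4 Stage-8 libraries held 277, 305, 221 and 373 CPM, against 182, 43.9 and 191 CPM at Stage-7, without overlap. The test did not call this step (log2 fold change 1.03, edgeR adjusted p = 0.143) or any other of the 5. Its libraries differed 6.58-fold at Stage-10.

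**Figure D5:**
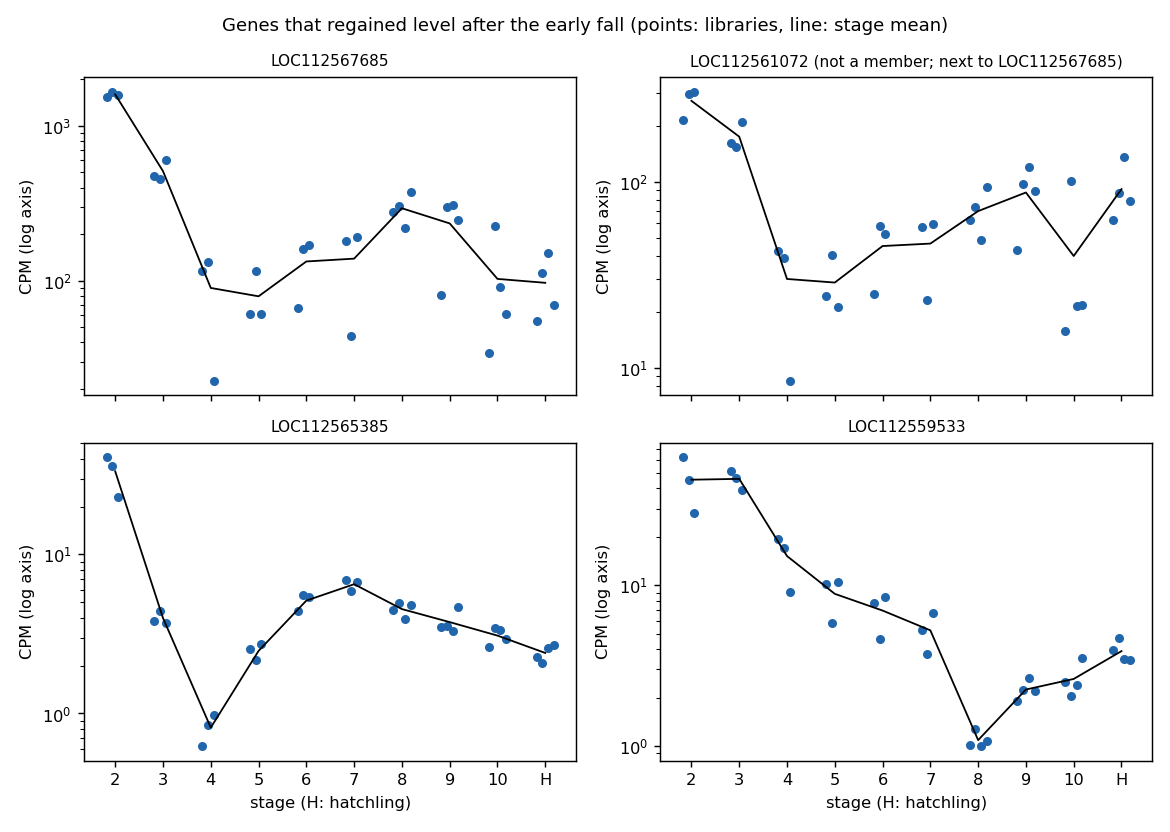
CPM (vertical log axis) in each library by stage for LOC112567685, LOC112565385 and LOC112559533, and for LOC112561072, the gene next to LOC112567685 and not one of the 37. Points are libraries and lines join stage means. LOC112567685 and LOC112561072 have the same lowest library at all 10 stages.

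The reference table gives the order of genes in assembly ASM307304v1, in which all 37 were found. They lay on 13 of 14 linkage groups, with at most 6 on 1 group, and 0 were next to another of the 37. Of their 74 neighbours, 27 had 10 CPM or more at Stage-2, and 2 of these 27 were at 25% of Stage-2 or less at Stage-5. The build behind the counts is not known here, so the order alone was used.

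The neighbours below were chosen after their values were seen. LOC112561072, next to LOC112567685, averaged 273 ± 49.3 CPM at Stage-2, 30.02 ± 18.7 CPM at Stage-4, 69.6 ± 19 CPM at Stage-8 and 91.4 ± 31.9 CPM in hatchlings. Both genes had the same lowest library at all 10 stages and the same highest at 7. At Stage-10 the libraries held 34.2, 225, 91 and 61.2 CPM in LOC112567685 and 15.7, 100.9, 21.4 and 21.7 CPM in LOC112561072, with replicate 2 the highest in both. Over 62 pairs of a member and a neighbour with reads at all stages, the lowest library was shared at a median of 3 stages and the highest at a median of 4.

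LOC112560932, next to LOC112560933, averaged 248 ± 91.1 CPM at Stage-2 and 26.3 ± 11.3 CPM in hatchlings, or 10.6% of Stage-2. Its Stage-5 mean was 29.7% of Stage-2, so it is one of the 85 genes that fell later. It shared the lowest library with LOC112560933 at 8 of 10 stages and the highest at 9. LOC112559593, on the other side of LOC112560933, shared the lowest at 7 and the highest at 9. Whether reads were shared between neighbouring genes was not tested.

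The 85 genes that fell only after Stage-5 were set apart by the rule, so their values are given without a test. The median Stage-2 level was 45.4 CPM for the 37 and 182 CPM for the 85. At Stage-5 the median stood at 9.24% of Stage-2 for the 37 and 45.2% for the 85, and in hatchlings at 2.08% for the 37 and 10.1% for the 85.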

How the data were processed

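The authors deposited raw counts, whole numbers of reads for each gene in each library. Per the submitters' processing notes STAR was used. Its version and settings, the build, the annotation and the handling of strand were not found in the sources used here. Levels are CPM, counts divided by the library's column total, and were used to choose the genes. Fold changes come from edgeR 4.0.16 in R 4.3.3 (quasi-likelihood test, TMM scaling, filterByExpr by stage with a minimum count of 10, 1 coefficient per stage over 34 libraries), with Benjamini-Hochberg adjustment over 17441 genes. The scripts' test was tried on simulated data. Alternatives were RLE scaling, library totals, no filter, DESeq2 1.42.0, limma-voom (limma 3.58.1), fits of the compared stages alone, a replicate block and each library left out. There were 0 identical libraries, and the 42 pairs within stages differed beyond sampling noise (chi-square per gene 10.0 to 188).

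The 37 genes, the lists and the comparisons were chosen with earlier results of these data known. By the naming rule, the text names the 3 highest at Stage-2 and the 2 of deepest early fall in each class. It also names the 2 lowest in hatchlings relative to Stage-2, the 3 with the largest later mean relative to Stage-2, and those next to each limit. For each comparison it adds up to 2 calls each way of largest fold with 5 CPM or more and no overlap. Other names were chosen after their values were seen. Lists by gene product could not be applied without product names.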

Additional observations from a re-analysis of the deposited data

Results flagged for a closer look

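The named genes and the summed level gave 80 sets of 4 libraries, which were screened for 1 library far from the other 3. There were 2 such sets, both in hatchlings, where chance gives about 1 in 20. In LOC112553858, hatchling replicate 4 stood at 0.226 CPM, and the other 3 lay between 0 and 0.0104 CPM. In LOC112562736, hatchling replicate 2 stood at 11.3 CPM, and the other 3 lay between 8.41 and 8.68 CPM.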

How the results depend on the processing

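The rule gave 51 genes with TMM-scaled CPM and 52 with RLE, both including all 37, 35 with stage medians (33 of the 37), 47 with a floor of 5 CPM and 24 with a floor of 20 CPM. With 1 library left out it gave 32 to 39. With 1 library left out, the number called was 10 to 13 at Stage-7 against Stage-6, 10 to 13 at Stage-8 against Stage-7, 4 to 8 at Stage-9 against Stage-8, 2 to 5 at Stage-10 against Stage-9 and 23 to 26 at Stage-10 against Stage-6. At Stage-9 against Stage-8 it was 5 without replicate 1 or replicate 4 of Stage-8 or replicate 2 of Stage-9, and 4 without replicate 3 of Stage-9. At Stage-10 against Stage-9 it was 5 without replicate 2 of Stage-10. The genes called changed more than these totals. In the same order, 9 of 13, 9 of 13, 4 of 8, 2 of 3 and 22 of 25 calls were kept whichever library was left out. limma-voom called 8 at Stage-7 against Stage-6, 8 at Stage-8 against Stage-7 and 4 at Stage-9 against Stage-8. Fits of the compared stages alone called 5 at Stage-9 against Stage-8 and 1 at Stage-10 against Stage-9. The causes were not tested. Genes named after their values were seen are not in the next count. Of 37 called fold changes of genes named by the naming rule, 27 kept their call in every alternative run. Another 10 lost it in at least 1, and 1 of these changed sign. That was LOC112561393 at Stage-8 against Stage-7, whose log2 fold change ran from -2.03 without replicate 1 of Stage-7 to 0.23 without replicate 2. With the replicate block 12, 11, 8 and 2 genes were called at the 4 steps in order and 25 at Stage-10 against Stage-6. The labels do not say whether the numbers pair libraries. In the tested comparisons the deviations of same-numbered libraries had correlations of -0.173 to 0.0887, with 0 of 17 pairs over 0.1. Stages before Stage-6 were not examined in this way, and a shared origin of same-numbered libraries was not tested. Levels under 1 CPM rest on few reads, which limits what can be seen late.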
